A study of Homo sapiens with 3 samples.

Results

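Nuclear pore complex genes were examined on 3 expression arrays of IMR-90 ER:Ras cells, a human lung fibroblast line that carries an inducible Ras protein. They were taken as every gene whose symbol is NUP followed by a digit, together with TPR, POM121, SEH1L, SEC13, RANBP2, AAAS, NDC1, RAE1 and GLE1, which gave 35 of the 19775 genes named singly by a probe set. Of these, 32 are protein-coding. NUP133-DT and NUP50-DT are noncoding RNAs transcribed away from a pore gene and NUP210P1 is a pseudogene, so these 3 encode no pore protein and were included by name only.

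Growing cells were untreated. Cells in oncogene-induced senescence (OIS) had been kept for 6 days in 100 nM 4-hydroxytamoxifen (4-OHT), a drug that activates proteins fused to an estrogen receptor domain. Cells in replicative senescence (RS) had been passaged repeatedly for 10 weeks. All 3 conditions used the same ER:Ras derivative in the same medium with serum, no untreated IMR-90 cells without ER:Ras were analysed here, and each condition was 1 array with no replicate. No test between conditions was therefore possible. A difference given below separates these arrays, whose number limits its precision, and the spread between cultures is unknown.

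The nuclear pore complex is the channel through the nuclear envelope by which proteins and RNA pass between nucleus and cytoplasm. Its scaffold consists of an outer Y complex and an inner ring, held in the membrane by transmembrane proteins, and its central channel is lined with flexible proteins rich in phenylalanine-glycine repeats that bind transport receptors. Filaments extend to the cytoplasm, where exported mRNA is released, and a basket extends into the nucleus. Dividing cells assemble new pores both after mitosis and during interphase, and in cells that do not divide the scaffold proteins are known to be very long-lived.

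The promoters of the members at least 2-fold lower on both senescent arrays are shown first. That of RANBP2 is added, a large member chosen because its signal was nearly equal on the growing and OIS arrays. Its signal in RS was 1.15-fold higher than in growing cells. The members lower on both were NDC1, NUP155 and NUP35. NUP85 was at least 2-fold lower in OIS only and NUP160 in RS only, and their promoters are not shown. Each line gives the 250 bases before the start site from RefSeq (GRCh38.p14), in lower case, and capitals mark matches to the motifs searched. These were the cell cycle homology region (CHR), TTTGAA or TTCGAA, the E2F site, TTTCGCG or TTTGGCG or TTTGCCG or TTTCCCG, and CCAAT, each on both strands. NDC1 lies at chr1:53838297-53838546, minus strand, NUP155 at chr5:37371107-37371356, minus strand, NUP35 at chr2:183124193-183124442, plus strand, and RANBP2 at chr2:108719232-108719481, plus strand.
NDC1: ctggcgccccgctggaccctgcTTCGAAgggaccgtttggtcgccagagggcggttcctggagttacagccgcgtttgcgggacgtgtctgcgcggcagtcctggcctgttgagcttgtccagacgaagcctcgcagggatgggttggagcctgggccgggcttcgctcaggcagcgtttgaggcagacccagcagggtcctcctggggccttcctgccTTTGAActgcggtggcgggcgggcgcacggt
NUP35: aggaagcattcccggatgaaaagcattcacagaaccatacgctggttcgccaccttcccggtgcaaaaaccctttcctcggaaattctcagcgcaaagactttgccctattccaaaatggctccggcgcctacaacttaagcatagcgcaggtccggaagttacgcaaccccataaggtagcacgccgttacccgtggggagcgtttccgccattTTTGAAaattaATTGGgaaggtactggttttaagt
NUP155: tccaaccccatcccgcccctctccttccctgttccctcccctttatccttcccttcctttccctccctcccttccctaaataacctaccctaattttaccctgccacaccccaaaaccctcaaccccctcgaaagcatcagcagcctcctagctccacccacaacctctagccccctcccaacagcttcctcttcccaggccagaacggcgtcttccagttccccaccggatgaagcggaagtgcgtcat
RANBP2: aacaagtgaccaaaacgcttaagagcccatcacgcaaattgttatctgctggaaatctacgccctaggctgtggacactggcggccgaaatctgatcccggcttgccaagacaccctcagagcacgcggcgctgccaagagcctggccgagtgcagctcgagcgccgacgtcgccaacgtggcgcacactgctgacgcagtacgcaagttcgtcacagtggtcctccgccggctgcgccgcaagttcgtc

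CHR, E2F and CCAAT elements are known from promoters of genes that are transcribed in dividing cells. The NDC1 window held 2 CHR matches, beginning 228 and 31 bases before the start. In NUP35 a CHR match began 35 bases and a CCAAT match on the other strand 24 bases before the start. The NUP155 window had no match before the start and an E2F match 22 bases after it, outside the stretch shown. RANBP2 had none, while other members near their growing signals had matches. NUP42, 1.06-fold lower in OIS and in RS, had a CCAAT match on the other strand beginning 147 bases before the start. AAAS, 1.21-fold lower in OIS and 1.18-fold higher in RS, had an E2F match beginning 21 bases before the start. Whether matches go with lower signals was not tested. Of the 35 genes 32 had a window in the RefSeq table, 41 windows in all because some have several start sites. Over the full windows of 300 bases, CHR letters were in 11 of 41 member windows (26.8%) against 16.4% of all 35116 windows, E2F letters in 7 (17.1%) against 8.67%, and CCAAT in 18 (43.9%) against 34.6%. A CHR match beginning within 50 bases before the start, a limit chosen after the NDC1 and NUP35 matches were seen, was in 3 member windows, of NDC1, NUP35 and NUP93, and in 2.73% of all windows. Windows of the same gene can overlap, so they are not independent, and a match of letters is not evidence of a bound site.

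Signals are linear intensities per probe set. The brightest probe set, by mean log2 signal, stood for a gene, which counted as measured if it exceeded the floor, 45.5 intensity units (the pooled median), on at least 1 array. Of the 35 genes 30 were measured, and all 30 were above the floor on all 3 arrays, so no member was counted through a single condition. NUP210, a membrane glycoprotein of the pore that is known to be expressed in some tissues and not in others, was below the floor with all 5 of its probe sets, and its brightest read 19.7 on the growing array, 26.0 on the OIS array and 26.9 on the RS array. The other 4 below the floor were its relatives NUP210L and NUP210P1, the NUP62 relative NUP62CL, and NUP133-DT. The highest of their 12 signals was 39.9, of NUP210P1 in growing cells.

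**Figure D1:**
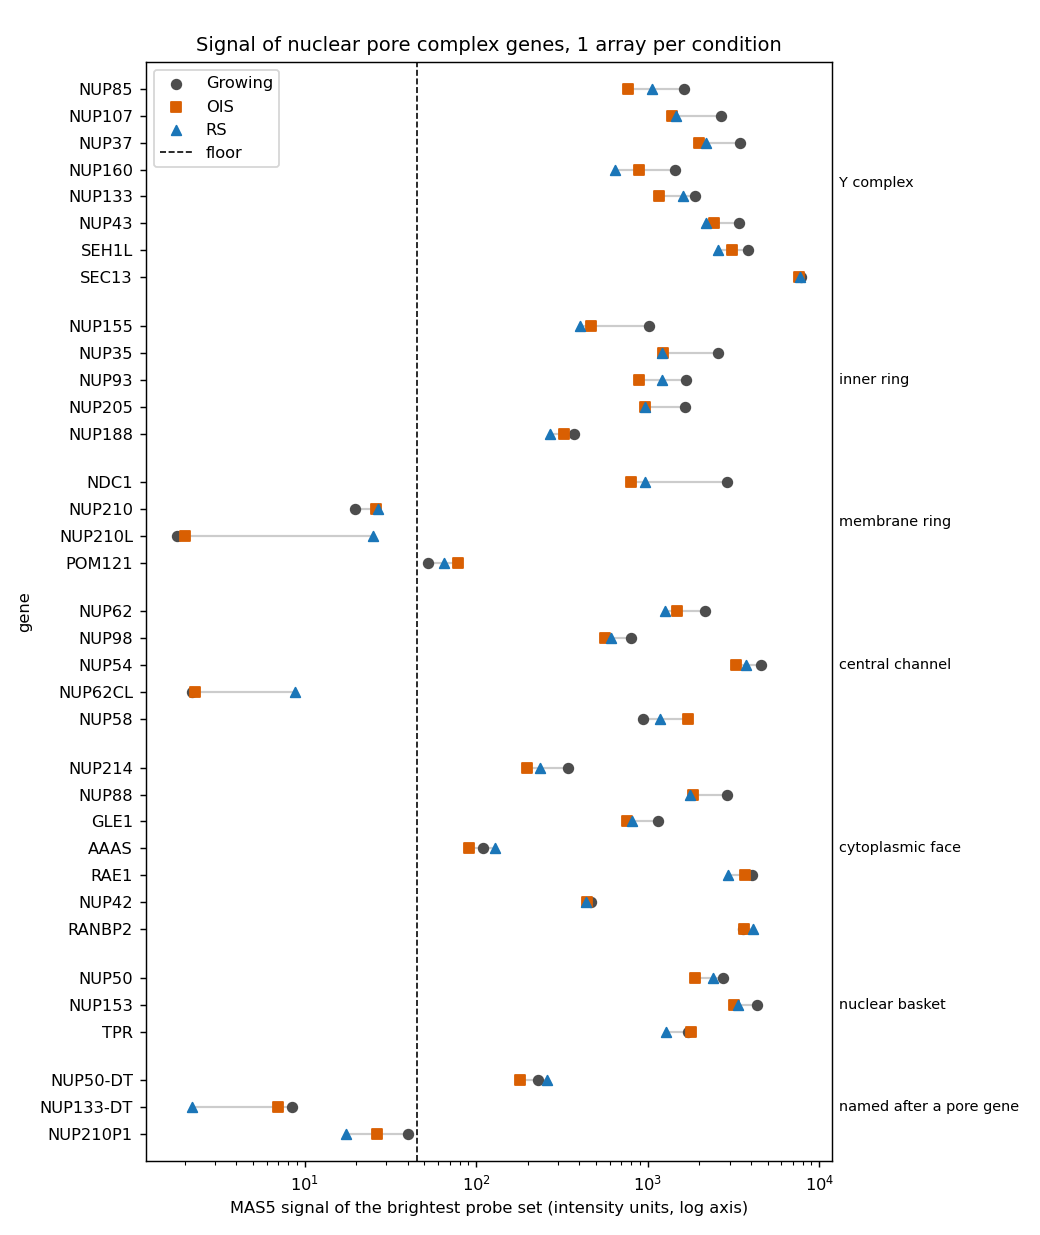
Signal of the brightest probe set of each of the 35 genes (x axis, intensity units, log scale) on the growing, OIS and RS arrays, grouped by place in the pore, with the floor of 45.5 as a dashed line. For most scaffold genes the growing array is rightmost, while SEC13 and NUP42 have nearly the same signal on all 3 arrays and 5 genes lie wholly below the floor. Positions of different genes are not comparable, because each probe set has its own brightness.

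Nuclear pore genes were mostly lower on both senescent arrays, by moderate amounts. The median log2 ratio over the 30 measured members was -0.52 for OIS over growing cells, or 69.8% of the growing signal, and -0.47 for RS over growing cells, or 72.3%. Over all 13466 measured genes the median was 0.00 in each, and over the 11295 genes above the floor on all 3 arrays it was -0.02 and -0.01. In OIS 26 of 30 members were below 0, against 49.9% of all measured genes, and in RS 25 of 30, against 49.3%. The 30 include the noncoding NUP50-DT. Over the 29 measured coding members the medians were -0.54 in OIS and -0.47 in RS, and 25 of 29 were below 0 in each. At least 2-fold lower were 4 of 30 in OIS (13.3%, background 6.63%) and 4 of 30 in RS (13.3%, background 5.58%). No member was at least 2-fold higher in either, against 4.92% and 3.72% of measured genes. At 1.5-fold, 13 of 30 were lower in OIS (43.3%, background 14.8%) and 12 of 30 in RS (40.0%, background 13.2%), and 1 of 30 was higher in OIS (background 11.7%) and 0 of 30 in RS (background 10.5%). Both comparisons use the same growing array, so an error of that array would enter both.

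The growing culture also had far higher signals of division genes. MKI67, the proliferation marker, read 815 on the growing array, 143 on the OIS array and 194 on the RS array, TOP2A, the topoisomerase of mitotic chromosomes, 7407, 873 and 1163, and LMNB1, which encodes lamin B1 of the nuclear lamina to which pores are anchored, 4163, 450.2 and 410.5. The part of cell division in the pore values was not tested. Fewer cells with high mRNA and less mRNA per cell cannot be told apart in such cultures. Fibroblast markers were present on every array, with COL1A1 at 33451, 36639 and 34357, and the median log2 ratio of the 7 markers was 0.09 in OIS and 0.04 in RS. Single markers differed more: S100A4 was 1.82-fold higher in OIS and 3.21-fold higher in RS, THY1 1.49-fold lower in OIS and COL3A1 1.41-fold lower in RS. The part of these markers in the pore values was not tested. Of 16 markers of other cell types 8 were below the floor on all 3 arrays, the summed signal of the 16 was 586 for growing cells, 603 for OIS and 598 for RS, and the brightest was EPCAM of epithelium, at 194 in RS. EPCAM read 157 in growing cells and 49.1 in OIS, 3.20-fold lower, while the endothelial markers PECAM1, at 49.0 and 135.0, and VWF, at 59.7 and 130.5, were 2.76-fold and 2.19-fold higher in OIS, so the sums join markers that differ in opposite directions. CDH1 and KRT5 of epithelium, CDH5 of endothelium, PTPRC of blood cells and GFAP of the nervous system were below the floor on all 3 arrays. Others passed the floor narrowly on a single array. KRT19 of epithelium read 55.5 and DES of smooth muscle 51.1 in growing cells. Of the blood markers CD3E read 55.1 in OIS and CD14 52.4 in RS. MYH11 of smooth muscle read 59.0 on the growing array, 48.8 on the OIS array and 54.0 on the RS array.

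**Figure D2:**
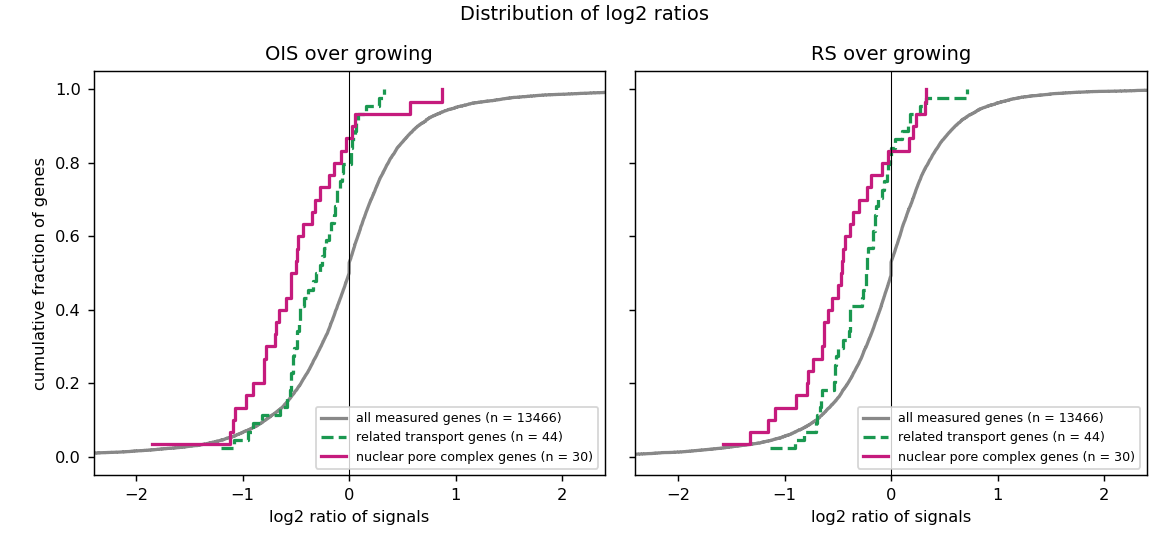
Cumulative fraction of genes (y axis) at or below each log2 ratio (x axis) for OIS and RS over growing cells, for the 30 measured nuclear pore genes, 44 measured related transport genes and all 13466 measured genes. The pore curve lies left of the curve of all genes through the middle of the range, with medians of -0.52 and -0.47 against 0.00.

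With no replicate arrays, further probe sets of a gene were the nearest to a repeat. Over 6759 genes with 2 measured probe sets, the difference between the log2 ratios of the brightest and the next had an SD of 0.51 for OIS and 0.47 for RS over growing cells. Among the 17 pore genes with such a pair the SD was 0.44 and 0.54. Both sets had the same sign for 11 of 17 genes in OIS and 14 of 17 in RS, against 4923 and 4748 of the 6759. The median absolute difference was 0.24 in both comparisons over the 6759 genes, and 0.35 and 0.32 among the pore genes. A log2 difference of 0.5 in a single gene is thus about as large as the SD between probe sets, and larger than their median difference. Over all 59 probe sets of coding members above the floor, 47 were below 0 in OIS and 49 in RS, with medians of -0.44 and -0.53. Of all measured genes 49.9% and 49.3% were below 0, and no share over all probe sets was taken. Sets of the same gene are not independent. Of the 17 genes with at least 2 sets, 9 were lower on every set in OIS and 8 were mixed. In RS 11 were lower on every set and 6 were mixed.

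The Y complex is the outer scaffold that coats the curved membrane at both faces of the pore and also binds kinetochores in mitosis. All 8 members measured were below 0 on both senescent arrays, with a median log2 ratio of -0.69 in OIS and -0.63 in RS. NUP85 read 1630.4 on the growing array, 764 on the OIS array and 1054 on the RS array, 2.14-fold lower in OIS and 1.55-fold lower in RS. NUP160, in an arm of the Y, read 1433, 884 and 643 in that order, 1.62-fold lower in OIS and 2.23-fold lower in RS. So NUP85 passed 2-fold in OIS and NUP160 in RS, and the OIS and RS signals of each stood apart by less than 1.5-fold. The other 2 sets of NUP160 were 1.83-fold and 1.45-fold lower in RS, and with the median of its sets, -0.87 on the log2 scale, it was not past 2-fold and 3 members were. NUP107 read 2689, 1378 and 1452, just short of 2-fold at 1.95-fold and 1.85-fold lower. NUP37 read 3438, 1978 and 2191, 1.74-fold and 1.57-fold lower. The senescent arrays lay below growing cells and close to each other for both genes.

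The remaining Y complex members differed less. NUP133, which has a membrane-sensing domain, read 1880.1 on the growing array, 1169 on the OIS array and 1612 on the RS array, 1.61-fold lower in OIS and 1.17-fold lower in RS. NUP43 read 3394, 2432 and 2195, and a second, dim probe set gave log2 ratios of 0.09 and 0.05 against -0.48 and -0.63. SEH1L, which also serves in a complex that senses amino acids for mTORC1, read 3861, 3088 and 2559, 1.25-fold and 1.51-fold lower, and its second set was 1.02-fold higher in OIS and 1.62-fold lower in RS. SEC13 is shared with the coat of vesicles that leave the endoplasmic reticulum. Its signal was 7804, 7625 and 7671, 1.02-fold lower on both senescent arrays, and it was the Y complex member nearest to 0 in both comparisons.

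The inner ring lies in the plane of the membrane and holds the channel proteins in place. It had the lowest medians among groups with at least 3 measured members, -0.90 in OIS and -0.78 in RS, and all 5 members were below 0 on both arrays. NUP155, which links the ring to the membrane, read 1013 on the growing array, 465 on the OIS array and 405 on the RS array, 2.18-fold and 2.50-fold lower. NUP35, the membrane-binding adaptor of the ring whose promoter is shown above, read 2584, 1233 and 1216, 2.10-fold and 2.13-fold lower. Both had a single probe set, so no second one could be compared. NUP205, a large solenoid protein, read 1658, 965 and 963, 1.72-fold lower in each. Its paralogue NUP188 read 373, 327 and 271, 1.14-fold and 1.38-fold lower, and its 2 dimmer probe sets were above the floor on 1 array each, too few to give a direction. NUP93, the linker that anchors NUP62 and its partners, read 1664, 892 and 1218, 1.87-fold lower in OIS and 1.37-fold in RS.

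Among membrane proteins NDC1 and POM121 were measured. NDC1, a multi-pass protein needed for pore assembly, had the lowest log2 ratio of all 30 members in both comparisons. It read 2883 on the growing array, 798 on the OIS array and 966 on the RS array, 3.61-fold and 2.99-fold lower. Its second probe set read 1015, 416 and 610.0, 2.44-fold and 1.66-fold lower, so its direction held on both sets but its size did not. Both NDC1 sets and the NUP155 set have names ending in _s_at, used where probes can match several transcripts. POM121, which helps to fuse the membranes at a new pore, had a single probe set of its own near the floor, at 52.4, 78.0 and 65.4. A brighter probe set that also names its near-identical copy POM121C read 4576, 4564 and 5381, with log2 ratios of 0.00 and 0.23. The 2 genes cannot be told apart there.

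**Figure D3:**
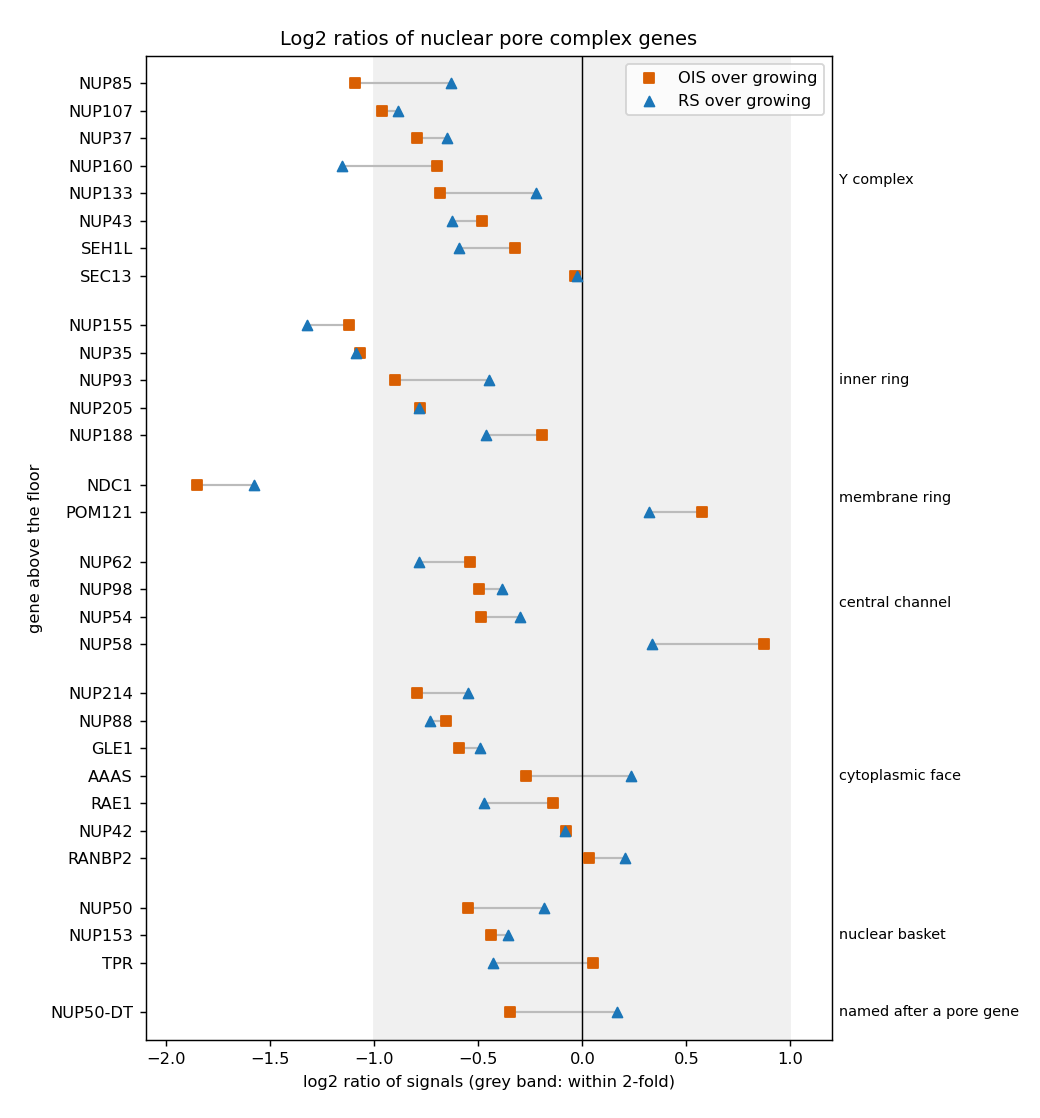
Log2 ratio of signals (x axis) of the 30 measured genes, as squares for OIS and triangles for RS over growing cells, grouped by place in the pore, with the grey band marking differences within 2-fold. NDC1 lies farthest left at -1.85 and -1.58, all Y complex and inner ring genes lie left of 0, and NUP58 lies farthest right at 0.87 and 0.33.

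The channel proteins NUP62, NUP54 and NUP58 form the trimer that fills the central channel with phenylalanine-glycine repeats, and none was 2-fold different. NUP62 read 2165 on the growing array, 1487.5 on the OIS array and 1255 on the RS array, 1.46-fold and 1.73-fold lower. Its second probe set was 2.13-fold and 2.09-fold lower. NUP54 read 4601, 3284 and 3737, 1.40-fold and 1.23-fold lower. NUP98, whose precursor is cut into a channel protein and the Y complex protein NUP96, read 799, 566.5 and 612, 1.41-fold and 1.31-fold lower, and its other 2 probe sets were also below 0 on both arrays.

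NUP58 was the highest member by its brightest probe set and at the same time the gene whose probe sets disagreed most. That set read 941 on the growing array, 1724.5 on the OIS array and 1185 on the RS array, 1.83-fold and 1.26-fold higher. The second read 1022, 967 and 522, the third 398, 297 and 199, and the fourth 184, 124 and 121. These 3 sets were lower on both senescent arrays, by 1.06-fold to 1.49-fold in OIS and by at least 1.52-fold in RS. Against growing cells the gene therefore has no agreed direction in these data. With the median of its 4 sets its log2 ratio was -0.25 in OIS and -0.79 in RS.

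At the cytoplasmic face 3 of 7 members were at least 1.5-fold lower in OIS (42.9%, background 14.8%) and 1 of 7 in RS (14.3%, background 13.2%), the latter near the share of all genes. The median was -0.27 in OIS and -0.47 in RS. NUP214, which binds export receptors, read 344 on the growing array, 198 on the OIS array and 235 on the RS array, 1.74-fold and 1.46-fold lower, while a second set was 1.10-fold and 1.12-fold lower and another, dim set was 1.21-fold higher in RS and below the floor in OIS, at least 1.36-fold lower. NUP88, its partner, read 2909, 1847 and 1753, 1.57-fold and 1.66-fold lower. GLE1, which activates the RNA helicase that strips export factors from mRNA, read 1143, 757 and 812, 1.51-fold and 1.41-fold lower, and its second set was lower as well. RAE1, an mRNA export factor that binds NUP98, read 4081, 3695 and 2940.4, 1.10-fold and 1.39-fold lower.

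NUP42, which binds GLE1, was nearly level at 465.5, 441 and 439. RANBP2, the largest filament protein, with SUMO ligase activity, read 3575, 3653 and 4118, 1.02-fold and 1.15-fold higher. Its 4 probe sets ranged from -0.16 to 0.17 in OIS and from -0.20 to 0.24 in RS on the log2 scale. AAAS, the gene of triple A syndrome, read 109.5, 90.6 and 129, so OIS lay below and RS above growing cells, by 1.21-fold and 1.18-fold and at a dim signal. These 3 genes thus lay near their growing signals on both senescent arrays.

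The basket proteins were a little lower. NUP153, which tethers the basket to the lamina, read 4322.5 on the growing array, 3191 on the OIS array and 3376 on the RS array, 1.35-fold and 1.28-fold lower, while a second, dim set read 115, 120.2 and 76.8, 1.04-fold higher in OIS and lower in RS. NUP50, a mobile protein that helps to recycle importins, read 2748, 1878 and 2416, 1.46-fold and 1.14-fold lower. Of its other 3 measured sets 2 were lower and 1 was higher, by 1.42-fold in OIS and 1.38-fold in RS. TPR, the coiled coil that builds the basket, read 1717.5, 1779.9 and 1276, level in OIS and 1.35-fold lower in RS. Its 4 other sets were all lower in OIS, by 1.23-fold to 1.43-fold for 3 of them and by at least 2.34-fold for the set that was below the floor there, and in RS by 1.49-fold to 1.91-fold. The level value of TPR in OIS therefore rests on its brightest set.

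The noncoding NUP50-DT starts 144 bases from the nearer NUP50 start site, on the opposite strand. It read 229 on the growing array, 180.5 on the OIS array and 258 on the RS array. NUP50 and NUP50-DT were thus both lower in OIS, by 1.46-fold and 1.27-fold, and in RS NUP50 was 1.14-fold lower and NUP50-DT 1.12-fold higher. NUP133-DT starts 89 bases from NUP133 and was below the floor on all arrays, at most 8.5.

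**Figure D4:**
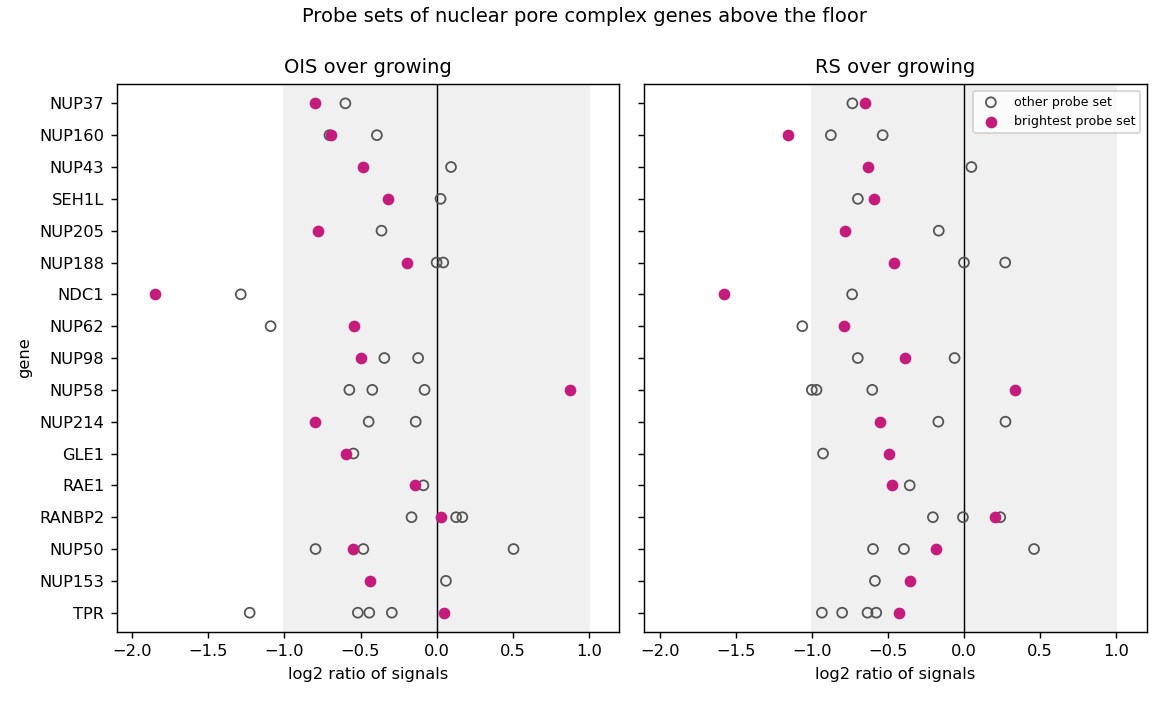
Log2 ratios (x axis) of every probe set above the floor for the 17 coding genes with at least 2, with the brightest filled and the others open, and the grey band marking differences within 2-fold. Both NDC1 sets lie well left of 0, while the brightest NUP58 set lies right of 0 and its 3 other sets left of 0 in both panels.

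OIS and RS were also set against each other, to show whether the 2 senescent cultures differed in pore genes. By the brightest sets they differed little. No member was 2-fold higher or lower, against 5.48% and 5.27% of all measured genes. None was 1.5-fold apart, against 12.4% and 13.0%. The median log2 ratio of OIS over RS was -0.04, and 16 of 30 members were below 0, against 48.1% of measured genes. Among coding members OIS was lowest relative to RS for AAAS, at -0.51, followed by NUP85 at -0.46, NUP133 at -0.46 and NUP93 at -0.45. It was highest for NUP58 at 0.54, TPR at 0.48 and NUP160 at 0.46. All these values were close to the SD of 0.52 between 2 probe sets of a gene in this comparison. All 4 NUP58 sets were higher in OIS than in RS, by 1.02-fold to 1.85-fold. Dimmer sets of other genes also passed 1.5-fold. Sets of SEH1L and NUP153 were 1.65-fold and 1.57-fold higher in OIS, and a NUP214 set was at least 1.65-fold lower. Of 17 coding genes with at least 2 sets, 5 were higher in OIS on every set, 1 was lower on every set and 11 were mixed. The largest values of the brightest sets are about as large as the SD between probe sets, and with 1 array each their spread between cultures is unknown.

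**Figure D5:**
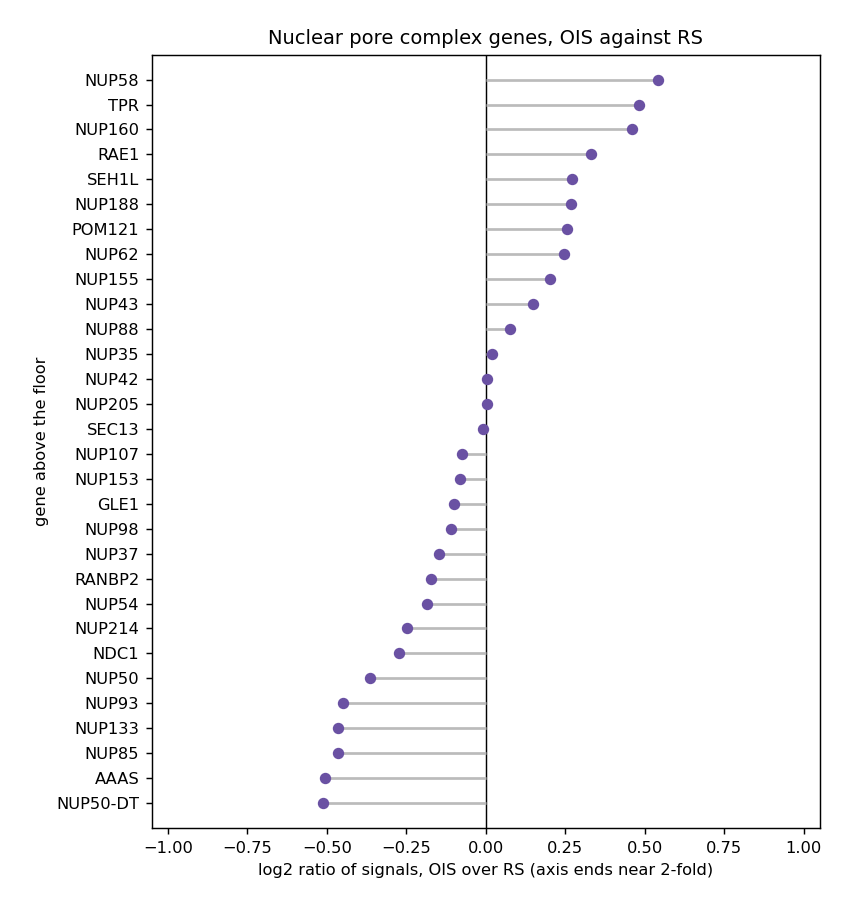
Log2 ratio of signals of OIS over RS (x axis) for the brightest probe set of each of the 30 measured genes, in order. The values run from -0.51 for NUP50-DT and AAAS to 0.54 for NUP58, and none reaches 1.5-fold.

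Genes that act with the pore were set beside it, from lists of transport receptors, the Ran cycle that gives transport its direction, and mRNA export. Of 50 listed genes 45 had a probe set of their own and 44 were measured. Their median log2 ratio was -0.29 in OIS and -0.23 in RS, and 2 and 1 of 44 were at least 2-fold lower, 4.55% and 2.27% against 6.63% and 5.58% of all measured genes, with none 2-fold higher in either. In OIS these were RCC1, the exchange factor that charges Ran with GTP, at 874 in growing cells and 379 in OIS, 2.31-fold lower, and the importin IPO5, at 4892 and 2313, 2.11-fold lower. In RS it was DDX39A, an RNA helicase of mRNA export, 2.19-fold lower at 1909.5 against 4186 in growing cells. The medians of the 44 genes lay between those of the pore genes and of all genes. Below 0 were 35 of 44 in OIS (79.5%) and 37 of 44 in RS (84.1%), near the shares of the pore genes, 86.7% and 83.3%. The lower direction was thus not particular to the pore genes. The difference between the lists was not tested.

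By group, the 16 measured importins had medians of -0.27 in OIS and -0.14 in RS, from IPO5 at -1.08 to IPO7 at 0.05 in OIS, and from IPO9 at -0.66 to IPO13 at 0.32 in RS. The 7 exportins had medians of -0.34 and -0.39. CSE1L, which returns importin alpha to the cytoplasm, was lowest in OIS at -0.95 and XPOT, the tRNA exporter, lowest in RS at -0.70, while XPO5, which exports microRNA precursors, was highest at 0.16 and -0.14. The 5 Ran cycle genes had medians of -0.49 and -0.53. RCC1 was their lowest at -1.21 and -0.90, and the highest was RANBP1 at -0.42 in OIS and RANBP3 at 0.71 in RS. RANBP3 read 329 on the growing array, 187 on the OIS array and 539 on the RS array. Against growing cells it was 1.76-fold lower in OIS and 1.64-fold higher in RS, and it was 2.88-fold lower in OIS than in RS. In mRNA export the medians of 14 genes were -0.15 and -0.25, with DDX39A lowest at -0.90 and -1.13, THOC5 highest in OIS at 0.33 and MCM3AP highest in RS at 0.16. AHCTF1, which seeds pore assembly on chromatin and is not among the 35 genes, read 928, 939 and 801, and POM121C 678, 650.2 and 647.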

How the data were processed

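RNA of 3 cultures was measured on 1 array each. The deposited values are linear intensity values per probe set, made by the authors with MAS5 per the submitters' processing notes, whose version is not given in the sources used here. Such processing scales each array to a common mean, so a shift of all genes in 1 direction is not visible. The 2% trimmed mean was 497 on each array. Of 54613 probe sets, 41091 named 1 gene in the platform annotation and were used; 1801 named several and 11721 none. All 35 members were found in the RefSeq table under the same symbol.

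Values were raised to the floor of 45.5, log2 was taken, and the probe set with the highest mean represented the gene. The log2 ratios compared each senescent array with the growing array, and OIS with RS. Genes are named by rule: all members, the highest and lowest gene of each related list and those past 2-fold there, and 3 reference genes. NUP98 was placed with the channel. The members and lists were chosen with earlier results of these data known. Groups were taken from the labels. The steps were tested on simulated data, with planted changes larger than any pore gene difference given here. That test does not bear on smaller differences. Alternatives were quantile normalization, centred ratios, floors at the 25th and 60th percentiles, a pseudocount of 16 in place of the floor, unfiltered genes, the median over a gene's probe sets, no _s_at or _x_at sets, and 1.5-fold. Python 3.11.15, numpy 2.4.6, pandas 2.3.3, scipy 1.17.1 and matplotlib 3.10.9 were used.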

Additional observations from a re-analysis of the deposited data

Results flagged for a closer look

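AAAS and NUP50-DT lay on opposite sides of growing cells in the 2 senescent cultures. The log2 ratio of AAAS was -0.27 in OIS and 0.23 in RS, and that of NUP50-DT was -0.35 in OIS and 0.17 in RS. With 1 array each, the difference was not tested. All 4 values are below the SD of about 0.5 between probe sets of a gene.

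Some probe sets were left out of the comparisons because they name several genes. The set shared by POM121 and POM121C read 4575.6 on the growing array, 4563.5 on the OIS array and 5380.9 on the RS array. The set shared by RANBP2 and 7 RGPD genes, which are its near copies, read 63.5, 50 and 71.0 in that order. There were no control samples for either.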

How the results depend on the processing

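The lower signals of pore genes on both senescent arrays kept their direction under every alternative run. The median log2 ratio for OIS over growing cells ran from -0.54 to -0.34 and for RS from -0.48 to -0.36. The values nearest 0, -0.34 and -0.36, came from the median of all probe sets, in which sets below the floor count as 0.00. Under that alternative NUP58 moved by more than the probe spread and, with TPR, turned below 0 in OIS. At 1.5-fold, 13 members were lower in OIS and 12 in RS, and 1 was higher in OIS. Without _s_at and _x_at sets 20 members were left and 2 were at least 2-fold lower in each comparison, since NDC1 and NUP155 have no other set. With the floor at the 25th percentile, 11.7, 33 members were measured, 1 of them, NUP210L, was 2-fold higher in RS than in growing cells and in OIS, and with NUP210P1 the members 2-fold lower in RS came to 5, both from signals under the usual floor. After quantile normalization NUP42 and RANBP2 changed sign in OIS and NUP42 in RS, all at differences near 0. Centring changed nothing, because the median over all measured genes was already 0.00. No member given above as at least 2-fold lower at the usual floor changed sign under an alternative that kept it. No paired analysis was possible because each condition has 1 array. Probe sets near the floor, such as those of POM121 and AAAS, limit what can be read from small differences.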
